A study of Mus musculus with 21 samples.

Results

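Forkhead transcription factors share a DNA-binding domain of the winged helix type and are named Fox, with a letter for the subfamily and a number for the gene. Their transcripts were measured in mouse forelimb buds (FBs) by selecting every gene whose symbol is Fox followed by a letter from a to s and a number, which gave 37 of the 14860 genes with a feature of their own on the array. Another 3 forkhead genes, Foxm1, Foxp3 and Foxr2, shared their feature with a neighbouring gene and were not used. The study placed whole Swiss mouse embryos in roller culture and asked how far gene expression in the FB departs from that of freshly dissected FBs over a few hours. FBs of E10.5 embryos (E counts embryonic days) were taken fresh (0 h) or after 1, 3 or 6 h of culture, and FBs of E12.5 embryos fresh or after 1 or 3 h. Each of these 7 groups held 3 arrays, 21 in all. The labels set the groups apart by stage and time in culture, and name no mutation or drug. The labels call the replicates biological, without saying how many embryos were pooled for each.

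Forkhead proteins bind short sites built around the core GTAAACA, and most of them switch genes on or off in a tissue-specific manner. FoxC and FoxF proteins act in mesoderm, where they are known for roles in somites, blood vessels and the coelomic lining. FoxP proteins are mostly repressors that bind DNA as pairs and mark, among others, limb-innervating motor neurons and the lung. FoxO proteins are held in the cytoplasm by phosphorylation through PI3K and Akt when growth factors are present and move to the nucleus when they are scarce, so the amount of FoxO mRNA does not show their activity.

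All values are log2 intensities, and a difference of 1 on this scale is a doubling. The median of an array over all its features was 6.00 to 6.40 in the E10.5 groups and 6.43 to 6.60 in the E12.5 groups, and arrays of one group correlated with r from 0.977 to 0.996. Tbx5, which defines the forelimb, read 9.86 to 11.35 in the 21 arrays. Isl1, which marks the hindlimb field and also motor and sensory neurons, read 8.85 in E10.5 1 h replicate 1 and 4.84 to 6.43 elsewhere at E10.5. At E12.5 it read 5.49 to 5.59 fresh and 6.30 to 7.24 in culture. Of the other hindlimb markers, Pitx1 went there from 6.17 to 6.61 fresh up to 7.16 to 7.69. Tbx4 went from 8.21 to 8.62 down to 7.82 to 8.14. In E10.5 1 h replicate 1 Pitx1 read 7.35, against 6.57 and 6.48 in its group, and Tbx4 7.63, against 7.64 and 7.58. E10.5 1 h replicate 1 also had a mean of 9.70 for 7 neural crest and Schwann cell markers, against 8.34 and 8.38 in the rest of its group. Fresh E10.5 FBs had 7.43 to 7.72. The mean of 10 placenta and decidua markers was 4.05, 6.48 and 6.38 at E10.5 0 h and 4.10, 6.32 and 5.04 at 6 h, and at most 3.58 in every other array. A mean of 13 coelomic mesothelium markers was 6.87 to 7.27 at E10.5 0 h, 8.12 to 8.44 after 1 h, 8.32 to 9.07 after 3 h and 8.69 to 9.33 after 6 h, while the E12.5 arrays had 6.85 to 7.51. Changes were tested with limma over all 14860 genes, and a gene is called changed where its Benjamini-Hochberg adjusted p was under 0.05. In whole tissue such as these FBs, fewer cells of a type and less RNA per cell cannot be told apart.

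Forkhead genes lay between the percentiles 18.2 and 92.1 of the mean level of all genes in FBs. Foxn3 had the highest mean over the 21 arrays, at 10.47, followed by Foxp1 at 10.44, Foxj3 at 9.73, Foxo4 at 9.60 and Foxk1 at 9.47. The mean of 13 members was above 7.43, the median over all genes, and 12 of these were above the median of the 14860 genes in each of the 21 arrays, which was 7.03 to 7.63. Of the other 24, 19 were above that median in none. At the low end stood Foxs1 at 4.47 and Foxh1 at 4.53. These levels come from different probes and do not rank the genes by amount of RNA. The widest range belonged to Foxf1, from 4.08 to 8.03, whereas Foxn2 lay between 7.65 and 8.31 in all arrays. Foxn3 has 2 features with means of 10.47 and 9.64 whose values correlated over the 21 arrays with r = 0.15, given here as a description, so its values depend on which one is read.

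**Figure D1:**
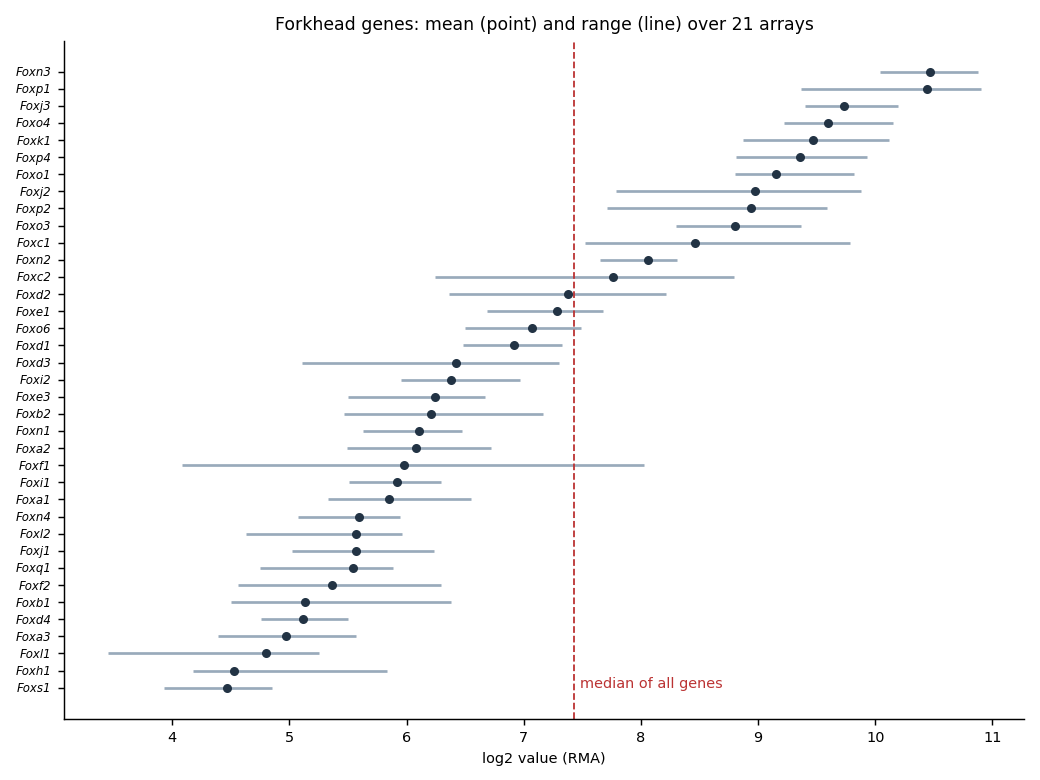
Mean log2 value (point) and range over the 21 arrays (line) for each of the 37 forkhead genes, ordered by mean, with the median of all 14860 genes as a dashed line at 7.43. Foxn3 and Foxp1 sit at the top at 10.47 and 10.44, Foxs1 at the bottom at 4.47, and Foxf1 and Foxc2 have long ranges, from 4.08 to 8.03 and from 6.24 to 8.79.

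Of the 37 genes, 22 were called changed in at least 1 of 9 comparisons between groups and 15 in none, 59.5% of the members beside 55.1% of all genes. Calls were made for 12 of the 13 members above the median level (92.3%, beside 71.5% of all genes above it) and for 10 of the 24 below it (41.7%, beside 38.6%). After 1 h of E10.5 culture 4 members rose and none fell, 10.8% of the members, against 3.91% of all genes called (2.79% higher and 1.12% lower). After 3 h it was again 4 and none, 10.8% against 4.68% (3.23% higher and 1.45% lower), and 4 and 1 with each array shifted to a common median. After 6 h 4 rose and 1 fell, 13.5% against 6.76% (3.89% higher and 2.87% lower). Between 3 h and 6 h of E10.5 culture limma called none (2.27% of all genes, 0.659% higher and 1.62% lower), and 1 member had an unadjusted p under 0.05. A further test, with equal variances, called 0 of all genes there after adjustment, so it says nothing about the members. In E12.5 FBs 1 member rose and 1 fell after 1 h, 5.41% against 2.11% (1.29% higher and 0.828% lower), and 8 rose and 1 fell after 3 h, 24.3% against 27.5% (9.94% higher and 17.6% lower). With the shift to a common median these splits were 1 and 2 after 1 h and 12 and 0 after 3 h, and quantile normalization gave 0 and 2 after 1 h. The arrays of the groups compared did not overlap for 11, 12 and 13 members after 1, 3 and 6 h of E10.5 culture (29.7%, 32.4% and 35.1%, against 25.2%, 21.1% and 21.5% of all genes), for 1 between 3 h and 6 h (2.70% against 14%), and for 13 and 18 in E12.5 culture (35.1% and 48.6%, against 26.9% and 48.7%). Between the stages it was 22, 19 and 17 at 0, 1 and 3 h (59.5%, 51.4% and 45.9%, against 47.3%, 41.5% and 43.3%). The comparisons with a 0 h group share those 3 arrays, so their calls are not independent of each other. The median change of the members was -0.02, -0.02 and -0.08 at 1, 3 and 6 h of E10.5 culture, beside -0.01, -0.02 and -0.04 for all genes, and 0.08 and 0.18 at 1 and 3 h of E12.5 culture, beside 0.00 and 0.01.

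**Figure D2:**
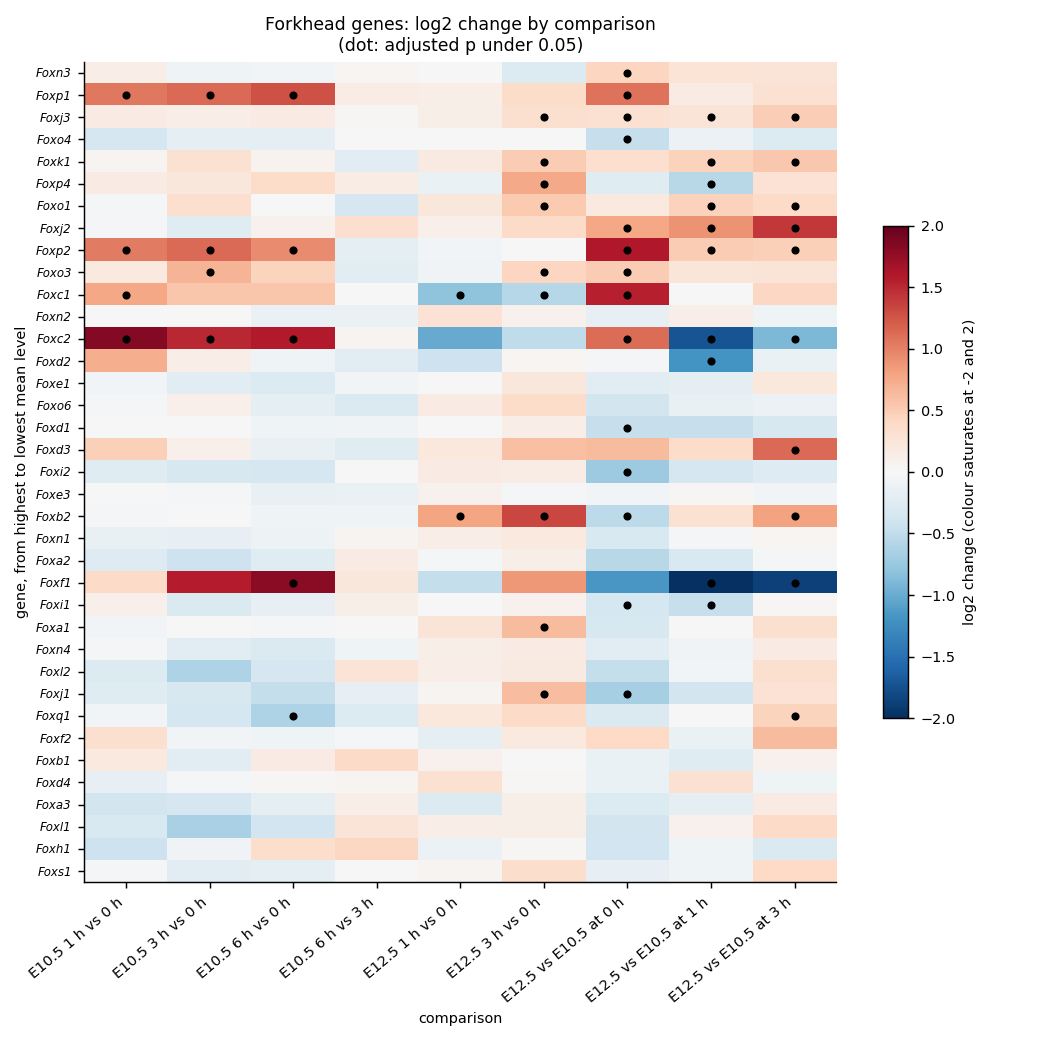
Log2 change of each forkhead gene (rows, from highest to lowest mean level) in 9 comparisons (columns), in red where higher and blue where lower in the first-named group, with a dot where the adjusted p was under 0.05. Foxc2, Foxp1 and Foxp2 carry dots in all 3 comparisons of E10.5 culture with 0 h, and the column of 6 h against 3 h carries none.

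Both FoxC genes rose within 1 h of E10.5 culture. Foxc2, which is needed for lymphatic vessels, heart outflow and the axial skeleton, read 7.16, 6.70 and 6.51 in fresh E10.5 FBs, 8.54, 8.69 and 8.63 after 1 h, 8.67, 7.95 and 8.30 after 3 h and 8.47, 8.79 and 7.86 after 6 h. Every cultured array lay above every fresh one. The mean went from 6.79 ± 0.33 (SD, n = 3) to 8.62 ± 0.08 at 1 h, a rise of 1.83 (3.56-fold, standard error 0.28, adjusted p = 0.00132). Its rise over 0 h was 1.51 at 3 h (adjusted p = 0.0046) and 1.58 at 6 h (adjusted p = 0.00162), and the difference between 6 h and 3 h was 0.06. Foxc1, its close relative that is required in eye, skull and kidney development, read 7.78, 7.86 and 7.52 fresh, 8.42, 8.65 and 8.40 after 1 h, 8.30, 8.16 and 8.38 after 3 h and 8.30, 8.16 and 8.35 after 6 h. These groups too did not overlap with the fresh one. The change passed the test at 1 h (0.77, standard error 0.18, adjusted p = 0.021) but not at 3 h (0.56, adjusted p = 0.0794) or 6 h (0.55, adjusted p = 0.0725). The Foxc1 call at 1 h was lost without 0 h replicate 3 (0.67, adjusted p = 0.106), 1 h replicate 1 (0.80, adjusted p = 0.0598) or 1 h replicate 2 (0.69, adjusted p = 0.082), and with arrays shifted to a common median (0.71, adjusted p = 0.051). Of 13 mesothelium markers 8 were higher and 1 lower at 1 h of E10.5 culture. Of 10 sclerotome and somite markers, where FoxC genes are also used, none was called at 1 h or 3 h, and their mean per array was 7.09 to 7.38 fresh, 7.26 to 7.61 at 1 h and 7.06 to 7.35 at 3 h. Of 8 neural crest and Schwann cell markers 5 were also higher after 1 h and 2 after 3 h, and none lower, and of 13 skeletal muscle markers 6 and 5. The 8 include the member Foxd3, which was not called at these times. The part of these tissues in the FoxC and FoxP values was not tested.

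Foxp1 and Foxp2 rose together with them. Foxp1, a repressor that sets motor column identity and is also used in heart and lung, read 9.37, 9.46 and 9.40 in fresh E10.5 FBs, 10.66, 10.51 and 10.24 after 1 h, 10.71, 10.15 and 10.75 after 3 h and 10.83, 10.63 and 10.60 after 6 h. No cultured array reached down to the fresh ones. The mean rose from 9.41 ± 0.05 (SD, n = 3) by 1.06 at 1 h (2.08-fold, standard error 0.14, adjusted p = 0.000252), 1.13 at 3 h (adjusted p = 9.26e-05) and 1.28 at 6 h (adjusted p = 1.03e-05). Foxp2, known for its part in neural circuits of vocal learning, read 7.73, 8.02 and 7.71 fresh, 8.92, 9.03 and 8.63 after 1 h, 8.95, 8.88 and 9.03 after 3 h and 8.41, 8.79 and 9.11 after 6 h. Its groups likewise stood clear of the fresh arrays, with rises of 1.04 (standard error 0.16, adjusted p = 0.00123), 1.13 (adjusted p = 0.000375) and 0.95 (adjusted p = 0.000885). Foxp4, which can pair with both, did not pass the test at any E10.5 time (0.17, 0.22 and 0.37, adjusted p = 0.659, 0.466 and 0.189). None of 6 measured partners of FoxP proteins was called in E10.5 culture. The placenta and decidua markers, high in 2 of the 3 fresh arrays, moved the other way from these genes at 1 h, with 4 of 10 lower. With the placenta and decidua mean entered as a covariate, a setting chosen after seeing the data, the rise at 1 h was 1.62 for Foxc2 (adjusted p = 0.115), 0.68 for Foxc1 (adjusted p = 0.294) and 0.93 for Foxp1 (adjusted p = 0.0648), and at 3 h 1.32 for Foxc2 (adjusted p = 0.139). The calls of Foxp2 at 1 h and of Foxp1 and Foxp2 at 3 h held with that covariate.

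**Figure D3:**
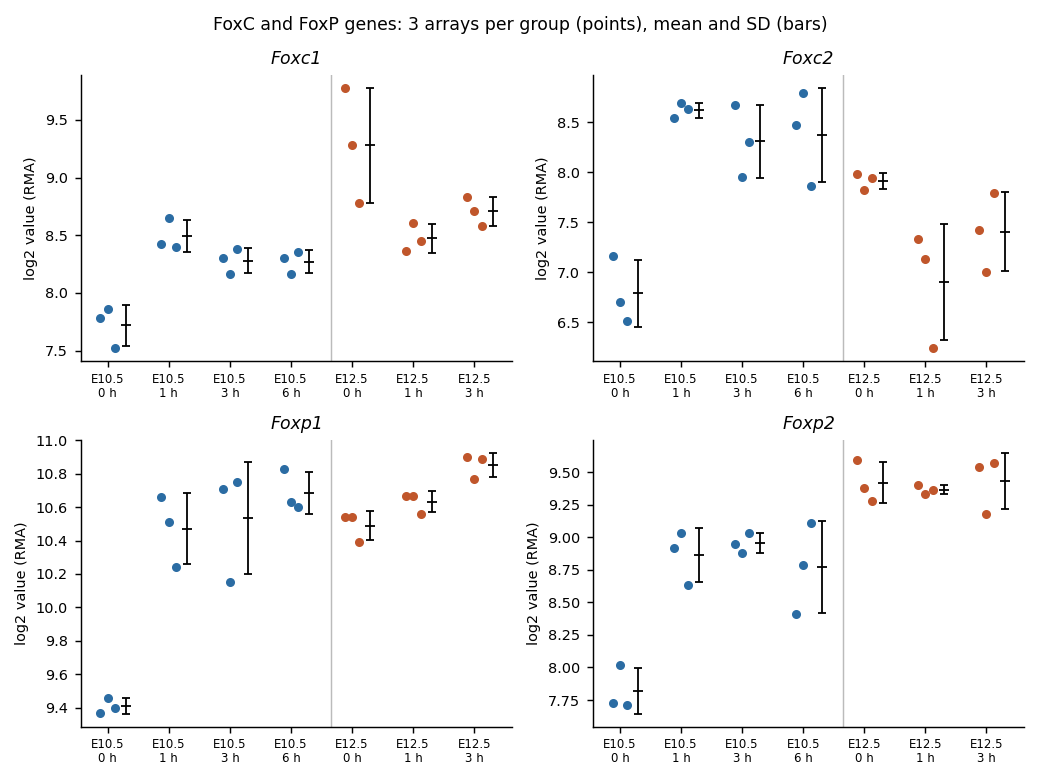
Log2 values of Foxc1, Foxc2, Foxp1 and Foxp2 in the 3 arrays of each group (points, blue for E10.5 and orange for E12.5), with mean and SD beside them. In all 4 panels the fresh E10.5 arrays are the lowest E10.5 group, and Foxp1 steps from 9.37 to 9.46 up to at least 10.15 in every other array.

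The sequences upstream of these genes were read from RefSeq (assembly GRCm38.p6) over 250 bases before the start of transcription. For 23 of the 37 members such a sequence was matched, 27 in all, with none for Foxc2 or Foxp2. Foxc1 and Foxp1 are shown because they moved together in E10.5 culture, Foxo3 because it followed at 3 h, and Foxb2 because it was called in E12.5 culture. For Foxp1, with 3 annotated starts, the one richest in CpG is given. Capitals mark GTAAACA (the forkhead site), TATAAA (the TATA box), CCAAT and GGGCGG (the GC box), each searched on both strands. The windows are chr13:31806396-31806645 (plus strand) for Foxc1, chr6:99028299-99028548 (minus strand) for Foxp1, chr10:42276696-42276945 (minus strand) for Foxo3 and chr19:16873831-16874080 (minus strand) for Foxb2, each printed along the gene's own strand.
Foxc1: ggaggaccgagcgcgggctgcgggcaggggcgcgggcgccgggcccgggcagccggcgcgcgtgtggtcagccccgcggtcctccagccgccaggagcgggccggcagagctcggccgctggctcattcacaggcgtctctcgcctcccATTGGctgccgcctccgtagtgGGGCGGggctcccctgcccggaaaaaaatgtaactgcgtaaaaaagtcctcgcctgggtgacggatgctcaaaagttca
Foxp1: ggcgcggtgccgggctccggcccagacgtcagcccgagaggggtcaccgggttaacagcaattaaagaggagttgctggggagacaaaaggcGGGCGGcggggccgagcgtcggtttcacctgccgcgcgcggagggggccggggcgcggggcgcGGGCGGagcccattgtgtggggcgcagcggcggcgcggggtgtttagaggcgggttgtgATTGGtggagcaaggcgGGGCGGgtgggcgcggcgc
Foxo3: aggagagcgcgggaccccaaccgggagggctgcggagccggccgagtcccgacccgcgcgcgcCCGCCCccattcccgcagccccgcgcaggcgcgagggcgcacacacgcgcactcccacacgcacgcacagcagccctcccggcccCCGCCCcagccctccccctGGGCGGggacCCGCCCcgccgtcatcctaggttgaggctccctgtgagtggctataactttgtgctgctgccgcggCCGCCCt
Foxb2: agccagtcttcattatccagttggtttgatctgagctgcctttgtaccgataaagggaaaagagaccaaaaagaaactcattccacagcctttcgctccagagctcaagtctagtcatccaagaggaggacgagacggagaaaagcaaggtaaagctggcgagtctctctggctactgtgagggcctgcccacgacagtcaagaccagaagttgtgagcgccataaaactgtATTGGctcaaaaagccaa
The windows of Foxc1, Foxp1 and Foxo3 hold 29, 34 and 31 CpG and at least 1 GC box each, and that of Foxb2 holds 7 CpG and none. The Foxp1 window was picked for its CpG. The other starts of that gene hold 11 CpG with 1 GC box and 3 CpG with none. Over the members the median was 17 CpG and 62.8% G and C, beside 12 and 57.6% over the 14898 windows of all genes measured. A GC box was present in 74.1% of the members' windows (48.2% of all), a CCAAT box in 44.4% (34.9%), a TATA box in 7.41% (9.99%) and a forkhead site in 3.7%, the 1 window of Foxa1 (2.55% of all). A match is a description of letters and not of a bound site.

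Foxc1, Foxc2, Foxp1 and Foxp2 also differed between fresh FBs of the 2 stages. At E12.5 0 h Foxc1 read 9.78, 9.28 and 8.78, Foxc2 7.98, 7.82 and 7.94, Foxp1 10.54, 10.54 and 10.39, and Foxp2 9.59, 9.38 and 9.28. All of these lay above every fresh E10.5 array of the same gene. The difference was 1.60 for Foxp2 (3.03-fold, standard error 0.16, adjusted p = 1.02e-06), 1.56 for Foxc1 (adjusted p = 4.35e-06), 1.12 for Foxc2 (adjusted p = 0.00632) and 1.08 for Foxp1 (adjusted p = 1.35e-05). It shares its E10.5 0 h arrays with the culture changes above, and the value of Foxc2 was 0.92 (adjusted p = 0.174) with the placenta and decidua covariate. After 1 h in culture the order of the stages had turned for Foxc2, which read 7.33, 7.13 and 6.24 in E12.5 FBs, a difference of -1.72 from E10.5 FBs of the same time (adjusted p = 0.000291). At 3 h it read 7.42, 7.0 and 7.79, a difference of -0.90 (adjusted p = 0.0227), a call lost without E10.5 3 h replicate 1 (-0.72, adjusted p = 0.0901) or without E12.5 3 h replicate 1 (-0.91, adjusted p = 0.055) or 2 (-0.70, adjusted p = 0.11). For Foxp2 the stage difference shrank to 0.51 at 1 h (adjusted p = 0.0331) and 0.47 at 3 h (adjusted p = 0.0323). Neither of these was called with arrays shifted to a common median (0.34 and 0.25, adjusted p = 0.243 and 0.329), and leaving out single arrays (E10.5 1 h replicate 1 or 3 or any E12.5 array at 1 h, and E10.5 replicate 1 or 2 or E12.5 replicate 1 or 3 at 3 h) gave 0.39 to 0.53 with adjusted p of 0.0556 to 0.154.

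In E12.5 culture none of the 4 genes passed the test for a rise. Foxc1 fell, from 9.28 ± 0.50 (SD, n = 3) fresh to 8.36, 8.61 and 8.45 at 1 h, a change of -0.80 (standard error 0.18, adjusted p = 0.0226), and to 8.83, 8.71 and 8.58 at 3 h, a change of -0.57 (adjusted p = 0.0224). The groups were apart at 1 h and overlapped at 3 h. These falls rest on few arrays. Without 0 h replicate 1, which read 9.78, they were -0.56 (adjusted p = 0.12) and -0.32 (adjusted p = 0.142). The call at 1 h was also lost without 0 h replicate 2 (-0.80, adjusted p = 0.0921), 1 h replicate 1 (-0.75, adjusted p = 0.112) or 1 h replicate 3 (-0.79, adjusted p = 0.0888), and that at 3 h without 0 h replicate 2 (-0.57, adjusted p = 0.0586), 3 h replicate 2 (-0.58, adjusted p = 0.0569) or 3 h replicate 3 (-0.51, adjusted p = 0.0808), or with arrays shifted to a common median (-0.53, adjusted p = 0.0598). Foxc2 differed from 0 h by -1.01 and -0.51, with both cultured groups wholly below the fresh one, without passing the test (adjusted p = 0.0746 and 0.202). Foxp1 differed by 0.14 and 0.36 (adjusted p = 0.768 and 0.057), with both cultured groups wholly above the fresh one. Foxp2 differed by -0.05 and 0.01 (adjusted p = 0.957 and 0.98). The difference between the culture changes of the 2 stages was itself tested, and no array is shared between those 2 changes. At 1 h, 1 member had a higher and 4 a lower change at E12.5 than at E10.5 (13.5% of the members, against 0.538% of all genes called). Among all genes 0.148% were higher and 0.39% lower. With arrays shifted to a common median the split was 0 and 3, and with quantile normalization 0 and 4. Foxc2 differed by -2.84 (standard error 0.40, adjusted p = 0.00186), Foxc1 by -1.57 (adjusted p = 0.00531), Foxp2 by -1.09 (adjusted p = 0.0352) and Foxp1 by -0.92 (adjusted p = 0.0398). At 3 h, 3 were higher and 4 lower (18.9% against 14.3%, of which 4.83% were higher and 9.43% lower, and 5 and 4 with either of those scalings). Foxc2 differed by -2.02 (adjusted p = 0.00517), Foxc1 by -1.14 (adjusted p = 0.00876), Foxp2 by -1.12 (adjusted p = 0.00553) and Foxp1 by -0.77 (adjusted p = 0.0163). Leaving out single arrays ended none of these calls at 3 h or those of Foxc1 and Foxc2 at 1 h. The calls of Foxp1 and Foxp2 at 1 h were lost without most single arrays of the 4 groups, with changes of -0.96 to -0.82 and -1.11 to -1.01 where lost. Only without E10.5 0 h replicate 1 or 1 h replicate 3 was Foxp1 still called, and only without E10.5 0 h replicate 1 or 2, E10.5 1 h replicate 3 or E12.5 0 h replicate 3 was Foxp2. With the placenta and decidua covariate the calls of Foxc1 (-1.50, adjusted p = 0.0693), Foxp1 (-0.80, adjusted p = 0.182) and Foxp2 (-1.30, adjusted p = 0.064) at 1 h and of Foxp1 (-0.67, adjusted p = 0.0746) at 3 h were also lost. The mesothelium markers also differed, with 3 of 13 lower at 1 h and 7 of 13 at 3 h. Between fresh FBs, where the 4 genes were higher at E12.5, 2 of these markers were higher and 5 lower. At 3 h of E12.5 culture 5 of them were higher and none lower, while Foxc1 fell.

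**Figure D4:**
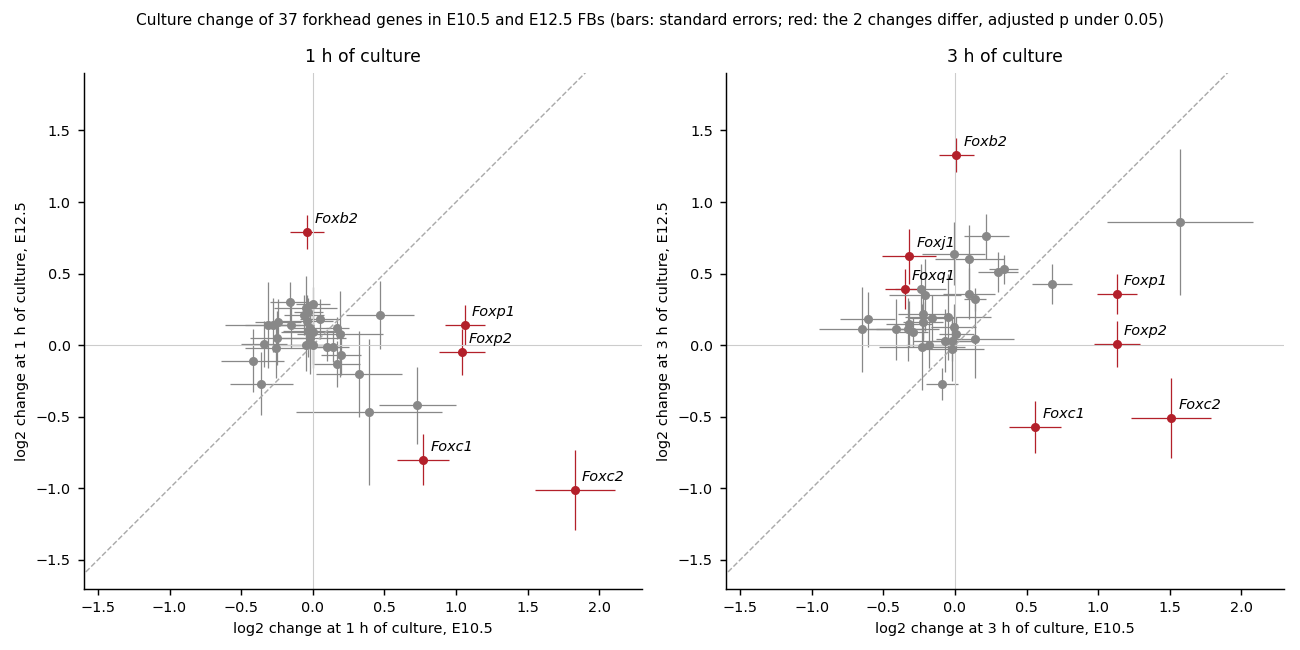
Log2 change in E12.5 culture (vertical axis) against that in E10.5 culture (horizontal axis) for the 37 forkhead genes at 1 h and 3 h, with standard errors as bars, the line of equal change dashed, and genes whose 2 changes differ at an adjusted p under 0.05 in red with their names. Foxc1, Foxc2, Foxp1 and Foxp2 lie below the line in both panels and Foxb2 above it, at 0.79 against -0.04 and at 1.33 against 0.01.

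Among the FoxO genes, Foxo3 rose at 3 h of culture in both stages. In E10.5 FBs it read 8.33, 8.40 and 8.30 fresh, 8.55, 8.60 and 8.46 after 1 h, 9.16, 8.74 and 9.15 after 3 h and 9.09, 8.61 and 8.67 after 6 h. All cultured arrays were above the fresh ones, and the change passed the test at 3 h (0.68, 1.60-fold, standard error 0.14, adjusted p = 0.0083) but not at 1 h (0.20, adjusted p = 0.518) or 6 h (0.45, adjusted p = 0.0577). With the placenta and decidua covariate the value at 3 h was 0.49 (adjusted p = 0.239). In E12.5 FBs Foxo3 read 9.05, 8.72 and 8.77 fresh, 8.81, 8.90 and 8.62 after 1 h and 9.26, 9.37 and 9.20 after 3 h. The groups at 0 h and 3 h did not overlap, with a rise of 0.43 (adjusted p = 0.0251) that was lost without 0 h replicate 2 (0.36, adjusted p = 0.105) or 3 (0.39, adjusted p = 0.0827) or 3 h replicate 1 (0.44, adjusted p = 0.0563) or 2 (0.38, adjusted p = 0.0932). Fresh E12.5 FBs were above fresh E10.5 FBs by 0.50 (adjusted p = 0.0101), or 0.40 (adjusted p = 0.059) without E12.5 0 h replicate 1, and by 0.26 (adjusted p = 0.12) with arrays shifted to a common median. Foxo1, which regulates vessel growth and insulin-responsive metabolism, read 9.12, 8.96 and 9.25 at E12.5 0 h, 9.31, 9.37 and 9.35 after 1 h and 9.82, 9.44 and 9.65 after 3 h. Both cultured groups lay above the fresh one, and only the rise at 3 h passed (0.53, standard error 0.10, adjusted p = 0.00121). In E10.5 FBs Foxo1 read 9.34, 9.10 and 9.32 at 3 h, above the 8.87, 9.0 and 8.89 at 0 h, without passing the test (0.34, adjusted p = 0.0761), and was 8.98, 8.83 and 8.94 at 6 h. It stood higher in E12.5 than in E10.5 FBs at 1 h (0.46, adjusted p = 0.00483) and 3 h (0.38, adjusted p = 0.0107). With arrays shifted to a common median these were 0.29 (adjusted p = 0.102) and 0.16 (adjusted p = 0.303), and the second was lost without E10.5 3 h replicate 2 (0.31, adjusted p = 0.0558) or E12.5 3 h replicate 1 (0.29, adjusted p = 0.0659). Foxo4 read 9.49, 10.15 and 10.04 in fresh E10.5 FBs and 9.59, 9.22 and 9.48 in fresh E12.5 FBs, which overlap. Its difference of -0.46 (adjusted p = 0.045) was lost without E10.5 0 h replicate 2 (-0.34, adjusted p = 0.2) or 3 (-0.39, adjusted p = 0.148) or E12.5 0 h replicate 2 (-0.36, adjusted p = 0.186) or 3 (-0.49, adjusted p = 0.0789), and with the placenta and decidua covariate it was -0.06 (adjusted p = 0.894). Foxo6 was called in no comparison.

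Genes upstream and downstream of FoxO proteins were counted from lists. Of 15 measured genes that carry PI3K and Akt signals to FoxO, none was called at 1 h or 3 h of E10.5 culture, with medians of 0.03 and -0.01 beside -0.01 and -0.02 for all genes. After 6 h 2 were lower and none higher, Pik3r2 (-0.68, adjusted p = 0.00911) and Pik3r1 (-0.47, adjusted p = 0.0291), where 2.87% of all genes were lower. Between fresh FBs 3 were higher and 1 lower at E12.5, where 19.7% of all genes were higher and 7.39% lower. At 3 h of E12.5 culture 2 rose and 2 fell, where 9.94% of all genes were higher and 17.6% lower. Irs1, an adaptor of the insulin and IGF receptors, rose by 0.73 (adjusted p = 0.000728) and Igf1r, the IGF receptor, by 0.52 (adjusted p = 0.0152), while Sgk3, a kinase related to Akt, fell by 0.92 (adjusted p = 0.000875). Of 24 measured FoxO targets E10.5 culture had 1 higher and 2 lower after 1 h, 2 and 2 after 3 h, and 1 and 2 after 6 h. Cdkn1b, the cell cycle inhibitor p27, was the one that rose at all 3 times, by 0.69 (adjusted p = 0.0192), 0.86 (adjusted p = 0.00402) and 0.64 (adjusted p = 0.0173). Klf2, a factor of endothelial cells, fell by 0.70 at 3 h (adjusted p = 0.0263). At 3 h of E12.5 culture 2 targets rose and 4 fell, where 9.94% of all genes were higher and 17.6% lower. Among them Cdkn1a, the inhibitor p21, rose by 1.26 (adjusted p = 0.00116), and Sesn1, a stress-induced sestrin, fell by 0.72 (adjusted p = 0.000145). Between fresh FBs, 8 targets were higher and 1 lower at E12.5, with a median of 0.22 beside 0.03 for all genes. Sesn1 was higher by 1.04 (adjusted p = 1.24e-06) and Ccng2, a cyclin of arrested cells, by 0.99 (adjusted p = 5.16e-06).

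**Figure D5:**
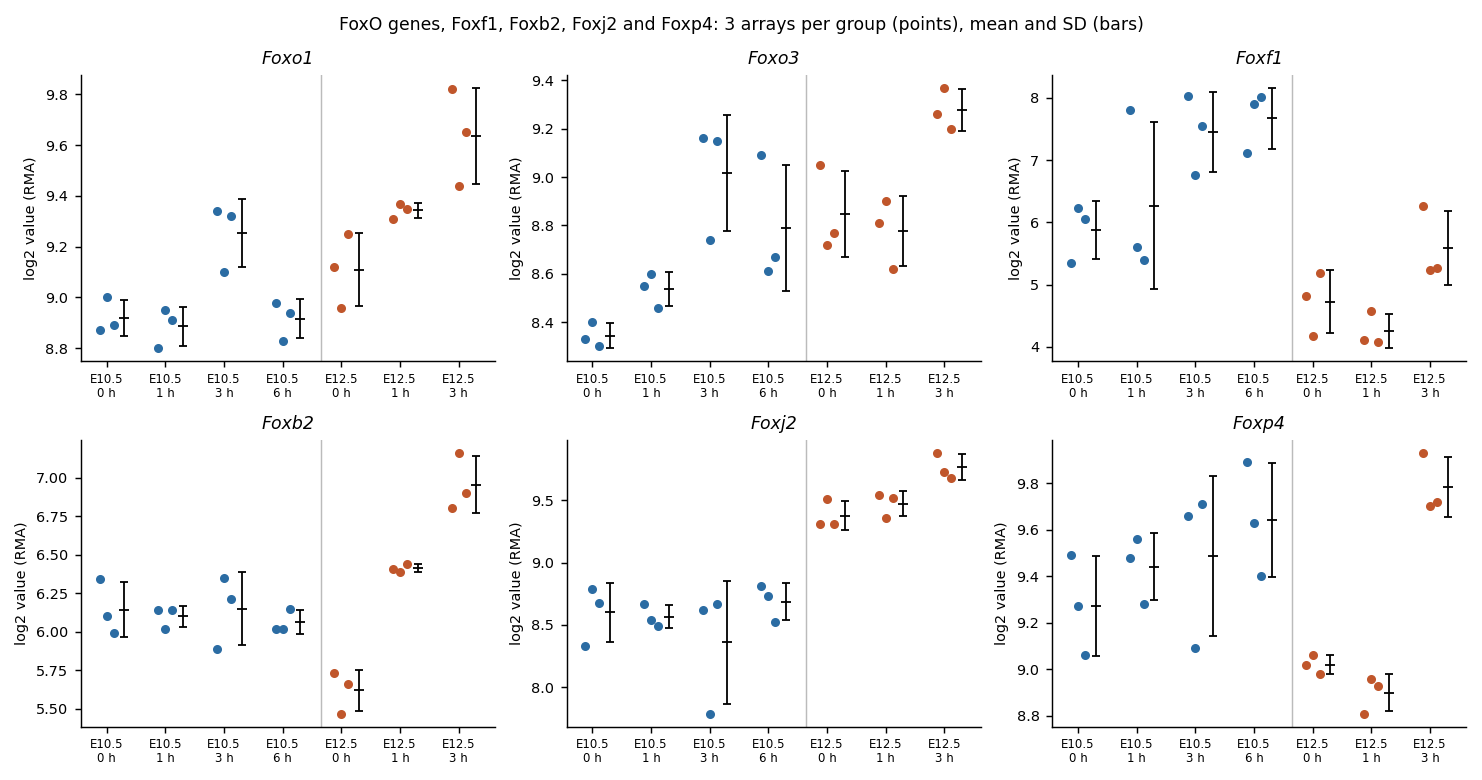
Log2 values of Foxo1, Foxo3, Foxf1, Foxb2, Foxj2 and Foxp4 in the 3 arrays of each group (points, blue for E10.5 and orange for E12.5), with mean and SD beside them. Foxf1 lies between 6.76 and 8.03 after 3 h and 6 h of E10.5 culture, Foxb2 climbs from at most 5.73 to at least 6.80 over E12.5 culture, and Foxp4 stays at or below 9.06 at E12.5 until it reaches at least 9.70 at 3 h.

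Foxf1, a hedgehog-responsive gene of the mesoderm that lines the gut and lung, was the most variable member. It read 5.35, 6.23 and 6.06 in fresh E10.5 FBs, 7.81, 5.61 and 5.39 after 1 h, 8.03, 6.76 and 7.55 after 3 h and 7.11, 7.90 and 8.01 after 6 h. At 1 h a single array, replicate 1, stood over 2 units above the others of its group, and at 3 h and 6 h all arrays were above the fresh ones. The change was 0.39 at 1 h (adjusted p = 0.782), 1.57 at 3 h (adjusted p = 0.0953) and 1.80 at 6 h (3.48-fold, standard error 0.51, adjusted p = 0.0436). The call at 6 h was lost without 0 h replicate 1 (1.53, adjusted p = 0.139), 2 (1.97, adjusted p = 0.0684) or 3 (1.89, adjusted p = 0.0912) and without 6 h replicate 2 (1.68, adjusted p = 0.108) or 3 (1.63, adjusted p = 0.155). E12.5 FBs had less of it, with 4.81, 4.18 and 5.18 fresh, 4.11, 4.57 and 4.08 at 1 h and 6.27, 5.23 and 5.26 at 3 h. No E12.5 array reached the E10.5 arrays of the same time, with differences of -1.16 at 0 h (adjusted p = 0.11), -2.02 at 1 h (adjusted p = 0.0103) and -1.86 at 3 h (adjusted p = 0.0121). That at 3 h was -1.57 (adjusted p = 0.0514) without E10.5 3 h replicate 1, and that at 1 h was smallest, at -1.25, without E10.5 1 h replicate 1 and still called. Of 13 mesothelium markers 9 were higher at 6 h of E10.5 culture, and 9 and 10 were lower in E12.5 than in E10.5 FBs at 1 h and 3 h. At 1 h of E10.5 culture 8 were higher and 1 lower, while Foxf1 in replicates 2 and 3 lay within its fresh range. At 3 h of E12.5 culture 5 were higher and none lower. Foxf1 lay above its fresh arrays there without passing the test (0.86, adjusted p = 0.243). Of 16 proximal limb and flank markers 7 rose and 2 fell at 6 h of E10.5 culture. The part of these tissues in the Foxf1 values was not tested. Of 11 measured hedgehog genes 1 rose and 3 fell at 6 h. Shh, the hedgehog ligand of the posterior limb margin, fell by 2.91 (adjusted p = 1.57e-05) and Ptch1, its receptor and target, by 1.11 (adjusted p = 2.4e-05).

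Some forkhead genes lie next to each other in the genome, and their values are given here side by side. On chromosome 8, Foxf1, Foxc2 and Foxl1 lie in a row (GRCm38.p6), with 1 other protein-coding gene between Foxf1 and Foxc2 and none between Foxc2 and Foxl1. At 1 h of E10.5 culture Foxc2 was higher by 1.83, with Foxf1 at 0.39 and Foxl1 at -0.31 (adjusted p = 0.677). Foxl1, which is active in the mesenchyme beneath the gut epithelium, was called in no comparison. It read 5.25, 5.18 and 4.94 in fresh E10.5 FBs and 4.39, 5.09 and 4.95 after 1 h, which overlap, and 3.45 to 5.25 over all arrays. On chromosome 13, Foxq1, Foxf2 and Foxc1 follow each other with no protein-coding gene between them. There Foxc1 was higher by 0.77 at 1 h, with Foxf2 at 0.32 (adjusted p = 0.669) and Foxq1 at -0.06 (adjusted p = 0.888). Foxf2, at 5.26, 5.10 and 5.14 fresh and 6.29, 5.05 and 5.12 after 1 h, overlapped between these groups and was called in no comparison. Foxq1, an epithelial gene of hair and stomach, fell at 6 h of E10.5 culture, from 5.57, 5.75 and 5.86 to 5.34, 5.24 and 4.75, with no overlap. Its change of -0.62 (adjusted p = 0.0131) was lost without 0 h replicate 3 (-0.55, adjusted p = 0.0676) or 6 h replicate 3 (-0.44, adjusted p = 0.071), and 6 h replicate 3 was 1 of the 2 arrays with the lowest medians. At 3 h it was higher in E12.5 FBs, at 5.80, 5.81 and 5.88, than in E10.5 FBs, at 5.44, 5.17 and 5.54 (0.45, adjusted p = 0.0261). That call was lost without E10.5 3 h replicate 2 (0.35, adjusted p = 0.121), E12.5 3 h replicate 1 (0.46, adjusted p = 0.0561), 2 (0.46, adjusted p = 0.0576) or 3 (0.43, adjusted p = 0.0742), and with arrays shifted to a common median (0.23, adjusted p = 0.0967). On chromosome 4, Foxd2 and Foxe3 are neighbours too. Foxd2 read 7.99, 8.21 and 8.02 at 1 h of E10.5 culture and 6.77, 6.80 and 7.08 at 1 h of E12.5 culture, with no overlap and a difference of -1.19 (2.28-fold, adjusted p = 0.00441) that held without each single array. Foxe3, a gene of the lens, was called in no comparison.

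Foxb2, best known from the developing neural tube and thalamus, passed the test at both times of E12.5 culture and at none of E10.5 culture. In E12.5 FBs it read 5.73, 5.47 and 5.66 fresh, 6.41, 6.39 and 6.44 after 1 h and 6.80, 7.16 and 6.90 after 3 h. Each group stood wholly above the one before it. The rise over 0 h was 0.79 at 1 h (1.73-fold, standard error 0.12, adjusted p = 0.00227) and 1.33 at 3 h (2.52-fold, adjusted p = 6.22e-06), and with quantile normalization that at 1 h was 0.71 (adjusted p = 0.0623). In E10.5 FBs its 12 arrays lay between 5.89 and 6.35, and the changes were -0.04, 0.01 and -0.08 (adjusted p = 0.913, 0.983 and 0.749). The culture changes of the stages differed by 0.84 at 1 h (adjusted p = 0.0396) and 1.33 at 3 h (adjusted p = 0.000472). The first of these was not called with arrays shifted to a common median (0.91, adjusted p = 0.158) or with quantile normalization (0.80, adjusted p = 0.22). It was also lost without most single arrays of the 4 groups, at 0.76 to 0.89, and kept only without E10.5 0 h replicate 1 or 3. Foxb2 was below E10.5 in fresh FBs (-0.53, adjusted p = 0.00417) and above it at 3 h (0.80, adjusted p = 0.000157, or 0.51 with adjusted p = 0.0608 after quantile normalization). Its level was below the median of all genes in every group, and its neighbour among the members on chromosome 19, Foxd4, was called in no comparison.

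At 3 h of E12.5 culture the other genes that rose were Foxp4, Foxa1, Foxj1, Foxk1 and Foxj3, beside Foxo1 and Foxo3. Foxp4, which is known from lung and gut epithelium, read 9.02, 9.06 and 8.98 fresh, 8.81, 8.96 and 8.93 after 1 h and 9.93, 9.70 and 9.72 after 3 h. The arrays at 3 h stood clear of the rest, with a rise of 0.76 (1.69-fold, standard error 0.16, adjusted p = 0.00172) that held without each single array. At 1 h it was lower in E12.5 than in E10.5 FBs (-0.55, adjusted p = 0.021), a call lost without E10.5 1 h replicate 1 (-0.53, adjusted p = 0.0574) or 2 (-0.49, adjusted p = 0.0818) or E12.5 1 h replicate 1 (-0.50, adjusted p = 0.0843). Foxj1, the master regulator of motile cilia, read 5.36, 5.02 and 5.36 fresh and 6.23, 5.76 and 5.63 at 3 h of E12.5 culture. Those groups did not overlap, with a rise of 0.62 (adjusted p = 0.0221) that was lost without 0 h replicate 2 (0.51, adjusted p = 0.104) or 3 h replicate 1 (0.45, adjusted p = 0.125). Fresh E12.5 FBs were below fresh E10.5 FBs for Foxj1 (-0.66, adjusted p = 0.0165), or by less without E10.5 0 h replicate 1 (-0.56, adjusted p = 0.0704) or E12.5 0 h replicate 2 (-0.55, adjusted p = 0.0835). Foxa1, a pioneer factor of endoderm, went from 5.61, 5.33 and 5.71 to 6.25, 6.25 and 6.06 (0.64, adjusted p = 0.0358), without overlap. Leaving out any 1 of 5 of these 6 arrays (all but 0 h replicate 3) ended that call, at 0.53 to 0.70 with adjusted p of 0.05 to 0.141, and quantile normalization gave 0.53 (adjusted p = 0.0522). Foxk1, which represses autophagy genes in muscle, went from 9.65, 9.42 and 9.44 to 10.12, 9.93 and 9.99 and so rose without overlap by 0.51 (adjusted p = 0.0118, and 0.46 with adjusted p = 0.0508 without 3 h replicate 1), and Foxj3 by 0.32 (adjusted p = 0.00531), from 9.73, 9.78 and 9.80 to 10.19, 10.09 and 10.01.

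Foxj2 and Foxj3, 2 broadly expressed relatives, were higher at E12.5 at every matched time. Foxj2 read 8.33, 8.79 and 8.68 in fresh E10.5 FBs and 9.31, 9.51 and 9.31 in fresh E12.5 FBs, 8.67, 8.54 and 8.49 against 9.54, 9.36 and 9.52 at 1 h, and 8.62, 7.79 and 8.67 against 9.88, 9.73 and 9.68 at 3 h. The stages overlapped at none of these times. The differences were 0.78 (adjusted p = 0.00371), 0.90 (adjusted p = 0.00169) and 1.41 (2.65-fold, adjusted p = 2.67e-05), and leaving out single arrays ended none of them. For Foxj3 they were 0.31 (adjusted p = 0.00777), 0.25 (adjusted p = 0.037) and 0.49 (adjusted p = 0.000217). With arrays shifted to a common median the Foxj3 differences were 0.06, 0.08 and 0.27 (adjusted p = 0.707, 0.67 and 0.0783), and its call at 1 h was lost without any E10.5 array of that time or E12.5 1 h replicate 2 or 3, at 0.21 to 0.27. Foxk1 was higher at E12.5 by 0.46 at 1 h (adjusted p = 0.0303) and 0.54 at 3 h (adjusted p = 0.00838). Its call at 1 h was lost without E10.5 replicate 2 or 3 or any E12.5 array, at 0.41 to 0.47, and with arrays shifted to a common median (0.29, adjusted p = 0.0617).

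Over all members the stage comparison of fresh FBs gave 8 higher and 6 lower at E12.5 (37.8% of the members, against 27.1% of all genes called, 19.7% higher and 7.39% lower). With arrays shifted to a common median the split was 5 and 18, and with quantile normalization 8 and 14. At 1 h it was 5 and 5 (27% against 18.1%, 13.8% higher and 4.35% lower), and 1 and 8 or 3 and 8 under those scalings. At 3 h it was 8 and 2 (27% against 28.7%, 17.7% higher and 11% lower), and 4 and 5 or 5 and 4. Shifting to a common median moved the median difference of all genes from 0.03 to -0.22, from 0.04 to -0.12 and from 0.05 to -0.17 in the same order. The members' own median went from -0.21 to -0.45, from -0.05 to -0.22 and from 0.25 to 0.03. Among the lower ones in fresh E12.5 FBs was Foxi2, which belongs to a subfamily of ear and epidermal genes, with 6.97, 6.68 and 6.66 at E10.5 and 6.03, 5.97 and 6.13 at E12.5. These groups did not overlap and differed by -0.73 (adjusted p = 0.0023), also without each single array. Foxi1, of the inner ear and kidney, read 6.19, 6.11 and 6.03 in fresh E10.5 FBs and 5.91, 5.51 and 5.86 in fresh E12.5 FBs, and 6.16, 6.16 and 6.29 against 5.79, 5.75 and 5.69 at 1 h. Neither pair of groups overlapped, and they differed by -0.35 at 0 h (adjusted p = 0.0145) and -0.46 at 1 h (adjusted p = 0.00343). The first was lost without E10.5 0 h replicate 1 (-0.31, adjusted p = 0.0543) or E12.5 0 h replicate 2 (-0.22, adjusted p = 0.1). Foxd1, of the kidney stroma and retina, read 7.32, 6.96 and 7.04 in fresh E10.5 FBs and 6.90, 6.48 and 6.57 in fresh E12.5 FBs, without overlap, and differed by -0.46 (adjusted p = 0.038), a call lost without E10.5 0 h replicate 1 (-0.35, adjusted p = 0.154) or 3 (-0.49, adjusted p = 0.0626) or E12.5 0 h replicate 2 (-0.37, adjusted p = 0.153) or 3 (-0.42, adjusted p = 0.113). Foxn3, a checkpoint repressor, read 10.33, 10.33 and 10.32 against 10.64, 10.74 and 10.88 and was higher without overlap (0.43, adjusted p = 0.00932), but the mean of its 2 features differed by 0.17 (adjusted p = 0.215), and arrays shifted to a common median gave 0.18 (adjusted p = 0.331).

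Foxd3, which keeps neural crest cells in an early state, was higher at E12.5 than at E10.5 after 3 h of culture. It read 6.23, 5.69 and 6.29 in E10.5 FBs and 7.30, 7.18 and 7.14 in E12.5 FBs at that time, without overlap, a difference of 1.13 (2.19-fold, standard error 0.24, adjusted p = 0.00197) that held without each single array. In fresh FBs it was 0.63 (adjusted p = 0.0581). Among the 7 other measured markers of neural crest or Schwann cells, 6 were higher at E12.5 in fresh FBs and 5 after 3 h. Their mean per array was 8.33 to 8.61 at E10.5 3 h and 9.59 to 9.71 at E12.5 3 h. The part of neural crest cells in the Foxd3 values was not tested.

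The 15 members called in no comparison were Foxa2, Foxa3, Foxb1, Foxd4, Foxe1, Foxe3, Foxf2, Foxh1, Foxl1, Foxl2, Foxn1, Foxn2, Foxn4, Foxo6 and Foxs1. Their changes lay between -0.42 and 0.32 after 1 h, -0.65 and 0.10 after 3 h and -0.39 and 0.35 after 6 h of E10.5 culture, and between -0.27 and 0.30 at 1 h and -0.03 and 0.36 at 3 h of E12.5 culture. Between the stages they lay between -0.56 and 0.40 in fresh FBs, -0.31 and 0.31 after 1 h and -0.29 and 0.64 after 3 h, the last being Foxf2 (adjusted p = 0.121). A gene of this kind may still have changed by less than 3 arrays a group can show. Some of them stood out in a single array. In E10.5 1 h replicate 1, the array with the high Isl1 and neural crest values, Foxb1, a gene of the neural tube and mammillary body, read 6.38 against 4.86 and 4.81, and Foxf2, of the palate and gut wall, 6.29 against 5.05 and 5.12. In the same array Foxa2, of the floor plate and endoderm, read 6.65 against 6.06 and 5.80, and Foxa1, called only in E12.5 culture, 6.55 against 5.42 and 5.49. For Foxb1, Foxf2 and Foxa1 this was the highest of all 21 arrays. Foxl1 and Foxl2 were lowest in E10.5 3 h replicate 2, at 3.45 and 4.63, the array with the lowest median.

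Genes that FoxM1 drives through mitosis were counted although Foxm1 itself had no feature of its own. Of 14 measured, 10 fell and none rose at 3 h of E12.5 culture, with a median of -0.43 beside 0.01 for all genes. Cdc20, the activator of the anaphase-promoting complex, fell by 0.93 (adjusted p = 0.000227) and Cenpa, the centromeric histone, by 0.88 (adjusted p = 5.15e-05). After 1 h and 3 h of E10.5 culture 1 (lower) and 0 of them were called, with medians of -0.25 and -0.11, and after 6 h 2 were lower, Cenpa (-0.46, adjusted p = 0.0166) and Nek2, a centrosome kinase (-0.56, adjusted p = 0.0191). At 3 h, 10 of the 14 were lower in E12.5 than in E10.5 FBs, among them Cenpa at -0.76 (adjusted p = 9.51e-05). Corepressors of the Groucho family, which several forkhead proteins recruit, had 2 of 5 measured members higher at 3 h of E12.5 culture. Of 11 genes of Smad signalling, whose Smad proteins partner Foxh1 and FoxO proteins, Smad1, Smad6 and Smad7 rose at that time, and Smad2 and the activin receptor gene Acvr2a fell. Beside these counts, 9.94% of all genes were higher and 17.6% lower at 3 h of E12.5 culture.

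Other markers were counted in the same arrays, and their part in the forkhead values was not tested. In E10.5 culture 6, 2 and 13 of 18 measured markers of distal limb mesenchyme were lower and none higher after 1, 3 and 6 h, and of 18 markers of limb ectoderm and ridge 12 were lower and none higher after 6 h. Skeletal muscle markers had 6, 5 and 0 of 13 higher at these times and none lower, and endothelial markers 1, 5 and 4 of 16. In E12.5 FBs proximal limb and flank markers had 7 and 10 of 16 higher after 1 h and 3 h and none lower. Between the stages 7, 9 and 9 of 10 macrophage markers were higher at E12.5 at 0, 1 and 3 h. Skeletal muscle markers had 9, 10 and 11 of 13 higher at E12.5, with 1 lower at 1 h and medians of 2.92, 2.20 and 2.22. Foxp2 and Foxj2 were also called higher at E12.5 at each of these times, but Foxc1 and Foxp1 only at 0 h. The stage difference of Foxc1 was -0.01 at 1 h (adjusted p = 0.971) and 0.42 at 3 h (adjusted p = 0.0831). That of Foxp1 was 0.16 (adjusted p = 0.467) and 0.31 (adjusted p = 0.0935). Of 8 markers of gut and liver endoderm other than FoxA genes, Shh and Gata6 were lower at E12.5 at 0, 1 and 3 h and Alb at 3 h, with none higher. Shh is also the hedgehog ligand of the posterior limb margin, so these counts do not stand for endoderm alone.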

How the data were processed

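FBs of Swiss mouse embryos were measured on exon arrays of the GeneChip Mouse Exon 1.0 ST type (Affymetrix). The authors summarized the probes to log2 values with RMA in Affymetrix Expression Console, which normalizes intensities across arrays, and deposited them in 1 table of 23332 features. Software versions and the genome build are not given in the sources used here. Of these features 14996 carry 1 gene, 1019 several and 7317 none. For the 135 genes with several features the one with the highest mean was taken, which left 14860 genes. Precision is limited by the 3 arrays per group.

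All 21 arrays entered 1 limma 3.58.1 model (lmFit and eBayes, R 4.3.3) of group means, with 14 residual degrees of freedom, and p-values were adjusted over all genes by Benjamini-Hochberg. The difference between the culture changes of the 2 stages was a contrast in the same model. The fit was tested on simulated data.

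The members, the lists and the tests were chosen with earlier results of these data known. By rule every member is accounted for, array values are given for called members (smallest adjusted p first) and for clusters on a chromosome with a called one, and lists are given by counts with up to 4 genes of smallest adjusted p. Alternatives were a shift of arrays to a common median, quantile normalization, dropping the dimmest 30% of genes and averaging a gene's features. Others were empirical Bayes with trend and robust options, a replicate block, fitting only the groups compared and an unadjusted p under 0.01. The last were a t-test with equal variances and omitting single arrays in turn. The methods name a threshold of p under 0.01 but no array test. The placenta and decidua covariate and a fit without the 2 arrays of lowest median were added after seeing the data. Promoters and gene order come from RefSeq, GRCm38.p6. Features of several genes were left out.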

Additional observations from a re-analysis of the deposited data

Results flagged for a closer look

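For 12 results the change in culture differed between the stages by the test of the difference itself, given here as E12.5 minus E10.5 on the log2 scale with no explanation weighed. At 1 h it was -2.84 for Foxc2, -1.57 for Foxc1, -1.09 for Foxp2, -0.92 for Foxp1 and 0.84 for Foxb2, and at 3 h -2.02 for Foxc2, -1.14 for Foxc1, -1.12 for Foxp2, -0.77 for Foxp1, 1.33 for Foxb2, 0.95 for Foxj1 and 0.74 for Foxq1. The Foxj1 difference at 3 h (adjusted p = 0.0296) was lost without E10.5 0 h replicate 1 (0.84, adjusted p = 0.06) or 2 (0.97, adjusted p = 0.0547), E10.5 3 h replicate 2 (0.77, adjusted p = 0.0664), E12.5 0 h replicate 2 (0.83, adjusted p = 0.0792) or E12.5 3 h replicate 1 (0.77, adjusted p = 0.0743). That of Foxq1 at 3 h (adjusted p = 0.0248) was lost without E10.5 0 h replicate 2 or 3, E10.5 3 h replicate 2, E12.5 0 h replicate 1 or 2 or E12.5 3 h replicate 2, at 0.63 to 0.74 with adjusted p of 0.0503 to 0.0686. Groups of 3 arrays are too small for a test of single outlying arrays.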

How the results depend on the processing

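No direction turned among the 70 calls of a gene in a comparison, 18 of which held under every alternative run and 52 were lost under at least 1. The number of all genes called follows each count below in brackets. In the main fit it was 581, 696 and 1004 at 1, 3 and 6 h of E10.5 culture and 338 between 3 h and 6 h. It was 314 at 1 h of E12.5 culture, 4023 and 4270 between the stages at 0 h and 3 h, and 80 for the difference of the culture changes at 1 h. With arrays shifted to a common median the count of called forkhead genes was 23 (5119) for fresh FBs of the stages. The count was 3 (90) for the difference of the culture changes at 1 h, and with quantile normalization 22 (4723) for fresh FBs. With only the groups compared it was 1 (82) at 3 h and 3 (343) at 6 h of E10.5 culture and 1 (621) at 1 h of E12.5 culture. An unadjusted p under 0.01 gave 8 (1348) at 3 h of E10.5 culture and 1 (962) between 3 h and 6 h. A t-test with equal variances, adjusted over all genes, called 0 (0), 0 (0) and 1 (71) at 1, 3 and 6 h of E10.5 culture. It called 0 (1) at 1 h of E12.5 culture and 2 (1433) between the stages at 3 h. Where that test called almost no gene at all, its count says nothing about the members. With the placenta and decidua covariate, chosen after seeing the data, the counts were 1 (102) after 1 h and 2 (196) after 3 h of E10.5 culture. They were 8 (2552) for fresh FBs and 1 (44) for the difference of the culture changes at 1 h. The cause of these shifts was not tested.

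Leaving out each array in turn gave 3 to 6 calls at 6 h of E10.5 culture, 0 to 1 between 3 h and 6 h, 1 to 2 and 5 to 9 at 1 h and 3 h of E12.5 culture, 6 to 13 between the stages at 3 h, and 2 to 5 and 5 to 9 for the difference of the culture changes at 1 h and 3 h. The ranges were 3 to 5 after 1 h and 4 to 5 after 3 h of E10.5 culture, and 10 to 13 and 7 to 7 between the stages at 0 h and 1 h.

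The labels give every group the replicate numbers 1 to 3. Of 63 pairs of arrays with the same number 12 had deviations from the group means correlated over 0.1 (from -0.202 to 0.328), so the numbers were not taken as a pairing. With the replicate number as a block 3 members (59 of all genes) were called in the difference of the culture changes at 1 h. No other count moved by over 1.5 times. The calls it ended were Foxf1 at 6 h of E10.5 culture (adjusted p = 0.0504), Foxj3 between the stages at 1 h (0.0522), Foxo4 between fresh FBs (0.0566), and Foxp2 (0.0586) and Foxb2 (0.062) in the difference of the culture changes at 1 h. With 3 arrays a group, a gene that was not called may still have changed.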
